A study of Homo sapiens with 12 samples.

Results

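Propionate and butyrate were compared with each other in HK2 cells that had also received TNF-α, with the moment of addition as a covariate. Of the 12 libraries of the series, 8 hold one of these short-chain fatty acids (SCFAs), 4 with propionate and 4 with butyrate, and they were chosen by their labels alone. HK2 is a long-established cell line from the proximal tubule of a human kidney. PRTN cells had 15 mM propionate for 24 h ahead of 5 ng/mL TNF-α for 3 h, BUTN cells had 3 mM butyrate in its place, and TNPR and TNBU cells had the same propionate or butyrate once TNF-α had been given. Each of these groups consists of 2 biological replicates, all 8 libraries share the TNF-α, and every culture is the same cell line. The remaining 4 libraries, 2 untreated (Ctrl) and 2 with TNF-α alone (TN), served only for orientation. By the study's methods the acid of TNPR and TNBU followed TNF-α for 24 h, and no library had that time without acid. Set against TN, the acid and the added time cannot be told apart in TNPR and TNBU. A treatment text shared by all labels names thapsigargin and JQ1 instead, so the treatments given here are those of the library labels and of the study's methods. The propionate dose was 5 times the butyrate dose, there is no matched dose, and the compound and its dose cannot be told apart in anything that follows.

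Propionate and butyrate are made by gut bacteria and differ in chain length, butyrate having the longer carbon chain. Both enter cells through monocarboxylate transporters and bind the receptors FFAR2 and FFAR3, and both inhibit histone deacetylases, the enzymes that take acetyl groups off histones. Butyrate is burnt by β-oxidation, whereas propionate is carboxylated and passed through methylmalonyl-CoA into the citric acid cycle. TNF-α switches on NF-κB, a family of transcription factors that raises chemokines, cytokines and adhesion molecules in tubular cells.

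The promoters of 3 chemokine and injury genes that recur below are shown first, because they carry a match to the κB consensus, the site class that NF-κB binds. Each line gives the 250 bases upstream of the RefSeq gene start (GRCh38.p14) on the gene's own strand, with the match in capitals. The consensus was searched on both strands, and overlapping matches were merged. The CXCL5 stretch is chr4:73998678-73998927 on the minus strand, the CXCL3 stretch chr4:74038690-74038939 on the minus strand and the LCN2 stretch chr9:128149203-128149452 on the plus strand. By the GENCODE gene positions, which place some starts elsewhere, the LCN2 stretch lies inside the gene and the CXCL3 stretch overlaps the start of its gene.
CXCL5: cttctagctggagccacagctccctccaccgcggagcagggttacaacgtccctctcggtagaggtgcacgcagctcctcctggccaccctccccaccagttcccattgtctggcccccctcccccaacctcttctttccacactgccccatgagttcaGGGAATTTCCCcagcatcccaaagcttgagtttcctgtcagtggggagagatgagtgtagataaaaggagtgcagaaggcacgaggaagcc
CXCL3: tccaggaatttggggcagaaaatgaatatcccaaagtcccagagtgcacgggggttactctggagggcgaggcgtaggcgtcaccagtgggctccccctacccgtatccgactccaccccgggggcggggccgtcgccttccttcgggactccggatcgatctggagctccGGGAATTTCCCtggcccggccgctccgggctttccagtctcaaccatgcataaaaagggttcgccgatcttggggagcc
LCN2: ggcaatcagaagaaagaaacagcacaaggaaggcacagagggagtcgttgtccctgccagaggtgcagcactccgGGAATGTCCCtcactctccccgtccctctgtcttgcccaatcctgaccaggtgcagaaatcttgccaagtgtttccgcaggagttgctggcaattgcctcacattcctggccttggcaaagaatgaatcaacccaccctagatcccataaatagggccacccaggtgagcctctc

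Among the 27305 promoters of that RefSeq set, 1380 hold the consensus in the same window, which is 5.05%, and of the 14175 with an entry among the genes tested 850 do (6.0%). Of the 35 genes that were higher with butyrate, described in the next paragraphs, 17 have an entry and these 3 hold a match (17.6%), and of the 9 that were higher with propionate 5 have an entry and 1 holds a match. The motif was chosen after the values of these genes were seen, and a match is a description of letters, not evidence of binding.

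Sequencing gave 27269986 to 33851130 expected counts per SCFA library, so that 3 counts, the floor for a gene seen at 0, correspond to 0.0867 to 0.105 CPM (expected counts scaled to a common library size with TMM factors). Mitochondrial transcripts took 5.86% to 9.46% of the counts. Replicates were further apart in the groups that received the SCFA after TNF-α. The median absolute log2 difference between replicates was 0.0901 in PRTN and 0.102 in BUTN, against 0.17 in TNPR and 0.194 in TNBU. Distances between a propionate and a butyrate library of the same timing ran from 85.3 to 94.4 on the log2 scale. All of them exceeded the distance between the 2 replicates of PRTN (82.5) and of BUTN (80.8), whereas the distance between replicates lay within that range in TNPR (88) and above it in TNBU (97.1). The cells expressed the tubular genes PAX8, KRT8 and KRT18, whereas SLC22A6, a transporter of the mature proximal tubule, was at 0 in all 8 libraries and 11 of 29 proximal tubule markers stayed under 1 CPM in every library.

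Propionate and butyrate left very similar transcriptomes. Of 24342 genes tested with limma-voom, 44 were called (0.181%), meaning that they differed by more than 1.5-fold with an adjusted p below 0.05. Butyrate was the higher of the 2 SCFAs for 35 of them (0.144%) and propionate for 9 (0.037%). The most strongly supported differences were in CXCL5, a chemokine for neutrophils, LCN2, the tubular injury protein lipocalin-2, and CD68, a lysosomal membrane protein, which were all higher with butyrate, and in TMEM104, a protein with membrane-spanning segments, which was higher with propionate. All 44 had the same direction at both timings. The plot of the difference against the level shows how few genes leave the 1.5-fold band at levels where counts are plentiful.

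**Figure D1:**
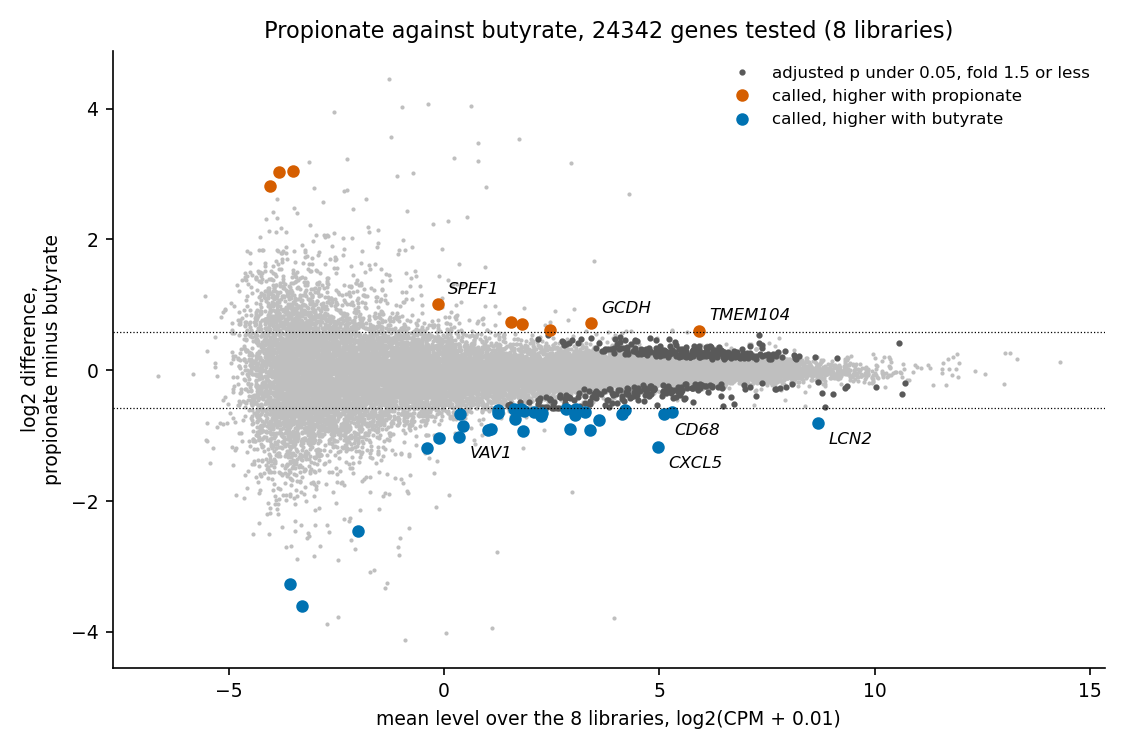
Difference between propionate and butyrate (vertical axis, log2) against mean level over the 8 SCFA libraries (horizontal axis, log2 CPM with a small offset), one point per gene tested. Orange and blue points are the 9 and 35 genes called, dark grey points passed the adjusted p at a smaller fold, and dotted lines mark a 1.5-fold difference in either direction.

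Without the fold threshold, 261 genes were higher with propionate (1.07% of those tested) and 211 with butyrate (0.867%) at an adjusted p under 0.05. Of these 472 genes, 428 differed by less than 1.5-fold, and the median absolute log2 difference among the 472 was 0.30. Most genes could be bounded rather than merely left uncalled. For 13722 genes, 56.4% of those tested, the whole 95% interval of the log2 difference lay within 1.5-fold in either direction, and among the 10081 genes with a mean of at least 10 CPM this held for 9943 (98.6%). A fold of 2 bounded 17172 genes (70.5%). Of the genes without a bound at 1.5-fold, 84.7% averaged under 1 CPM.

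The size of the list of 44 rests on the libraries that were treated before TNF-α. Leaving out PRTN replicate 1, PRTN replicate 2 or BUTN replicate 1 left 1 gene higher with propionate and 3 higher with butyrate, and leaving out BUTN replicate 2 left 0 and 3. Leaving out a TNPR or TNBU library gave 11 to 20 genes on the propionate side and 34 to 55 on the butyrate side. With only PRTN and BUTN in the fit, 57 and 121 genes were called, whereas with only TNPR and TNBU no gene was called and 862 had an unadjusted p under 0.05. CXCL5, LCN2 and CD68 kept their calls in 8 of 8 runs without 1 library, TMEM104 in 7 of 8, and the other 17 called genes named by rule in 2 to 4 of 8. The spread of the TNPR and TNBU replicates given above moves with this pattern, and its part in it was not tested.

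CXCL5 (ENSG00000163735.6, chr4:73995642-73998677 of GRCh38) is a ligand of the receptor CXCR2 that attracts neutrophils. Its level was 12.9 and 13.2 CPM in the PRTN libraries and 33.41 and 33.98 CPM in BUTN. After TNF-α it was 25.04 and 26.27 CPM in TNPR against 52.6 and 52.5 CPM in TNBU. Every butyrate library was above every propionate library, although with both acids the level was higher in the groups treated after TNF-α. The difference over both timings was 2.26-fold, a log2 difference of -1.18 ± 0.07 (SE), with a 95% interval from -1.33 to -1.03 and an adjusted p of 5.9e-05 (limma). With TNF-α alone CXCL5 stood at a mean of 14.2 CPM, next to the PRTN level and under the levels of the other 3 SCFA groups.

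LCN2 (ENSG00000148346.11, chr9:128149071-128153453) encodes an iron-scavenging protein that is measured in urine as a sign of tubular damage. It stood at 124 and 132 CPM in PRTN and at 229 and 228 CPM in BUTN. In TNPR it was 469 and 473 CPM, and in TNBU 794 and 839 CPM. LCN2 differed more between the timings than between the acids, so the 4 propionate and 4 butyrate libraries overlap as a whole. Within each timing both butyrate libraries were higher. The log2 difference was -0.81 ± 0.04 (SE), 1.75-fold, with a 95% interval from -0.89 to -0.73 and an adjusted p of 8.26e-06 (limma).

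CD68 (ENSG00000129226.13, chr17:7579491-7582111) is best known as a macrophage marker and is found in lysosomes of other cells too. Its level was 23.1 and 24.0 CPM in PRTN, 41.1 and 36.5 CPM in BUTN, 27.7 and 32.3 CPM in TNPR and 43.7 and 48.8 CPM in TNBU. The butyrate libraries were higher throughout, by 1.59-fold (log2 difference -0.67 ± 0.07, adjusted p 0.00573 by limma). In bulk RNA a change in the number of cells of a kind and a change in RNA per cell cannot be told apart. CD68 supplied most of the summed level of the 20 leukocyte markers, which ranged from 38.2 to 47.0 CPM with propionate and from 55.5 to 66.1 CPM with butyrate. Of those markers 15 were under 1 CPM in all 8 libraries. The other 4 beside CD68 were ITGAX, an integrin of myeloid cells, at 8.38 to 11.6 CPM, CD14, a receptor for bacterial lipopolysaccharide, at 2.13 to 3.52 CPM, and CSF1R and LYZ, which reached 1.22 and 1.5 CPM. Over the 11 members tested CD68 was the one called, 6 differences were below 0 and the median was 0.00. PTPRC, the pan-leukocyte antigen CD45, did not exceed 0.152 CPM, and the B cell marker MS4A1 was at 0 in all of them.

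TMEM104 (ENSG00000109066.13, chr17:74776499-74839753) was the most strongly supported gene of the propionate side. It stood at 68.8 and 69.0 CPM in PRTN, 43.9 and 41.5 CPM in BUTN, 76.6 and 75.9 CPM in TNPR and 52.6 and 53.9 CPM in TNBU. All 4 propionate libraries were above all 4 butyrate libraries, which the rule for named genes required. All 8 were above the mean of 31.1 CPM with TNF-α alone. The log2 difference was 0.61 ± 0.05 (SE), 1.52-fold, with a 95% interval from 0.50 to 0.71 and an adjusted p of 0.0011 (limma). It lost its call without BUTN replicate 2, where the difference was 0.57 and fell just under the fold threshold.

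**Figure D2:**
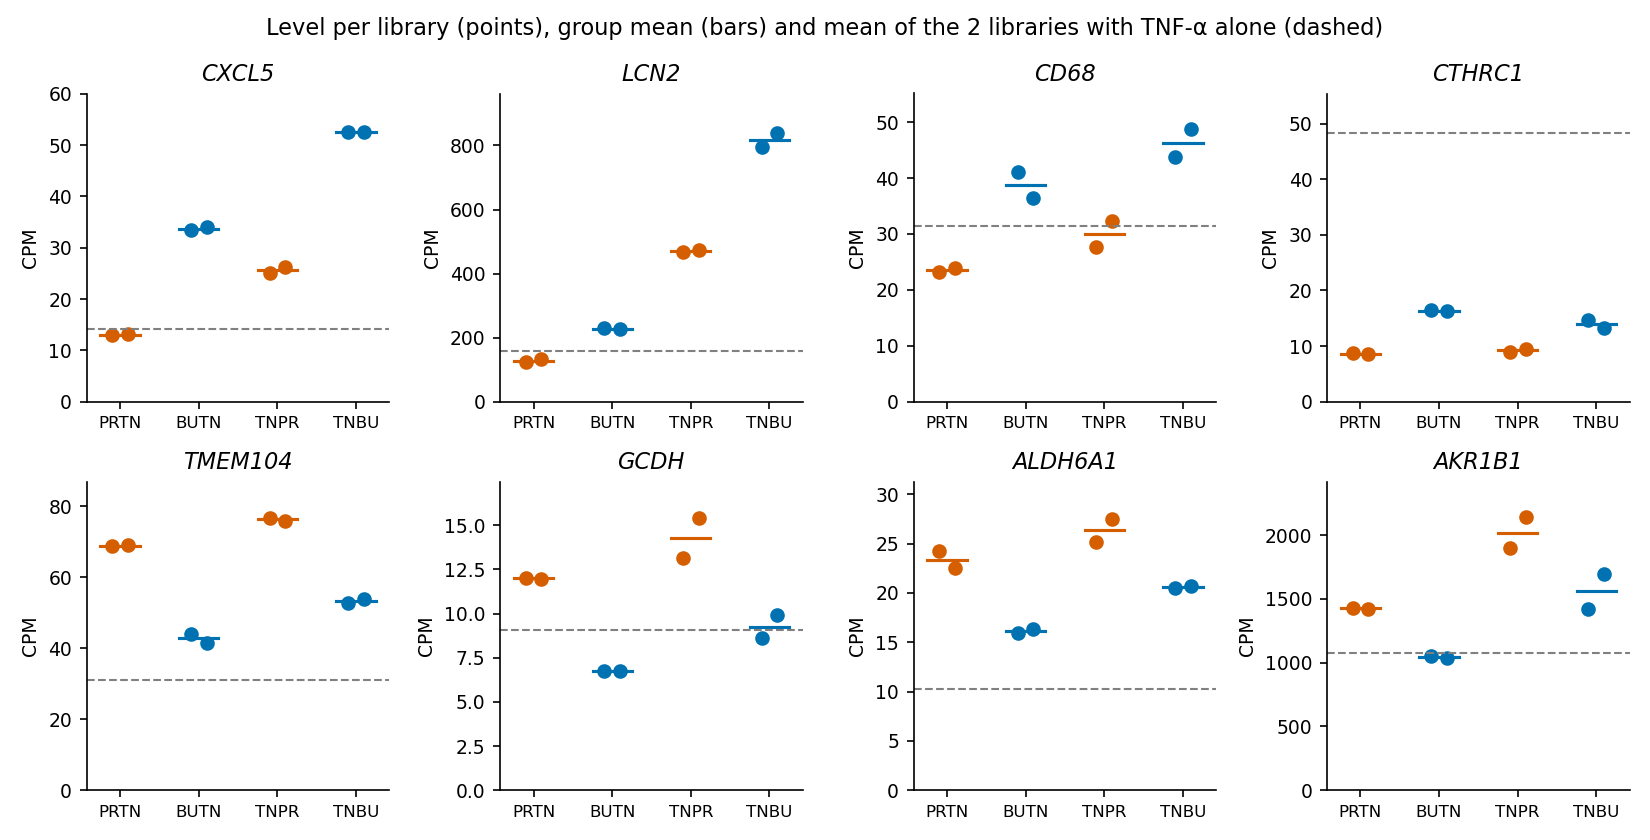
Level of 8 genes in CPM (vertical axes, from 0) in the libraries of the 4 SCFA groups (horizontal axes), with propionate in orange and butyrate in blue. Points are single libraries, bars are means of 2 replicates and dashed lines are the mean of the 2 libraries with TNF-α alone. In each panel the 2 points of each acid stay apart from those of the other at the same timing.

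Most butyrate-higher genes fell into 2 kinds when placed beside TNF-α alone, and 12 of the 35 fell into neither. Of the 35, 18 were called up against TN in all 4 SCFA groups, with the higher level under butyrate. Another 5 were called down in all 4, with the lower level under propionate. For TNPR and TNBU these calls hold the acid and the added time after TNF-α together. The other 12 had mixed calls or none, with CXCL5, LCN2 and CD68 among them. These placements use the same SCFA libraries as the comparison of the acids and are descriptions. Butyrate libraries did not overlap with propionate libraries for 29 of the 35, against 3.46% of all genes tested, and propionate libraries were all higher for 8 of the 9 propionate-side genes, against 4.12% of all genes. The genes were called on these same libraries, so this separation largely follows from the selection and is not further evidence.

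Keratins and tubular or epithelial genes were among those higher with both acids than with TNF-α alone. KRT20, a keratin of intestinal and urothelial lining cells, was 6.37 and 6.69 CPM in PRTN, 13.3 and 12.2 CPM in BUTN, 3.26 and 4.80 CPM in TNPR and 6.83 and 6.87 CPM in TNBU, against a mean of 0.0904 CPM with TNF-α alone. Its log2 difference was -0.90 ± 0.10 (SE, adjusted p 0.0103 by limma), with butyrate higher in every library although the lowest butyrate library was only slightly above the highest propionate one. KRT23, a keratin known to respond to deacetylase inhibitors, differed by -0.74 ± 0.16 on the same scale (adjusted p 0.0482). AQP1, the water channel of the proximal tubule, was 8.42 and 9.16 CPM in PRTN, 14.5 and 15.1 CPM in BUTN, 6.63 and 5.98 CPM in TNPR and 8.34 and 9.36 CPM in TNBU. It was called at a log2 difference of -0.64 ± 0.08 (adjusted p 0.0114) and overlapped only across timings. KRT19, another epithelial keratin, differed by -0.40 ± 0.04 (adjusted p 0.0062), under the fold threshold, from a mean of 87.9 CPM with propionate to 116 CPM with butyrate and 4.53 CPM with TNF-α alone. ADGRG2, an adhesion receptor, and BCL2L15, a member of the BCL2 family, belonged to the rest of the named genes of this kind. BCL2L15 was 7.38 and 7.03 CPM in PRTN, 14.6 and 13.6 CPM in BUTN, 5.92 and 8.79 CPM in TNPR and 11.8 and 14.7 CPM in TNBU (log2 difference -0.92 ± 0.12, adjusted p 0.0114).

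VAV1, PTPN22, CD22, APOBR and FGD2 were low but higher with butyrate. VAV1, an exchange factor that acts behind antigen receptors, was 0.984 and 0.973 CPM in PRTN and 2.06 and 2.14 CPM in BUTN, and stood at 0.563 and 0.80 CPM in TNPR against 1.26 and 1.29 CPM in TNBU (log2 difference -1.02, adjusted p 0.0184 by limma). The others of these 5 were PTPN22, a phosphatase of lymphocyte signalling (log2 difference -0.92, adjusted p 0.0264), CD22, a B cell receptor inhibitor (-0.91, adjusted p 0.0249), APOBR, a lipoprotein receptor of macrophages (-1.03, adjusted p 0.0288) and FGD2, an exchange factor for CDC42 (-0.70, adjusted p 0.0394). No propionate library reached the butyrate range for any of these 5, which the rule for named genes required. The highest level among them in any SCFA library was 7.04 CPM, and all 5 were below 1 CPM on average with TNF-α alone. The levels of the whole leukocyte list stand beside CD68 above, and their part in these values was not tested. ERVH48-1, a gene of retroviral origin whose reads may be shared with related copies, had the largest log2 difference of the named genes (-1.19 ± 0.24, adjusted p 0.0385), at 0.326 to 0.576 CPM with propionate and 0.73 to 1.19 CPM with butyrate.

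CTHRC1, a secreted protein of injured and remodelling tissue, was a named gene of the other kind. It was 8.71 and 8.61 CPM in PRTN, 16.4 and 16.3 CPM in BUTN, 9.003 and 9.531 CPM in TNPR and 14.7 and 13.2 CPM in TNBU, all far under the mean of 48.4 CPM with TNF-α alone. CTHRC1 was lower in all 4 SCFA groups than with TNF-α alone. Its level was lower with propionate than with butyrate at both timings (log2 difference -0.76 ± 0.08, adjusted p 0.00781 by limma). The others called down against TN in all 4 groups were BIRC7, an inhibitor of apoptosis, the chemokine CXCL3, HYI, a putative isomerase, and the pseudogene CCDC150P1, of which only CXCL3 is named by rule.

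On the propionate side 5 genes met the rule for named genes. GCDH, a mitochondrial dehydrogenase of lysine and tryptophan breakdown, was 12.04 and 11.98 CPM in PRTN, 6.75 and 6.77 CPM in BUTN, 13.2 and 15.4 CPM in TNPR and 8.60 and 9.91 CPM in TNBU. Propionate libraries were all above the mean of 9.06 CPM with TNF-α alone, and the log2 difference between the acids was 0.72 ± 0.08 (95% interval 0.53 to 0.91, adjusted p 0.0103 by limma). SPEF1, DNAAF1 and EFCAB12, of which SPEF1 and DNAAF1 are known from cilia and flagella, were called at low levels. SPEF1 was 1.1 and 1.25 CPM in PRTN, 0.501 and 0.578 CPM in BUTN, 1.16 and 1.28 CPM in TNPR and 0.631 CPM in both TNBU libraries (log2 difference 1.01 ± 0.18, adjusted p 0.0251). DNAAF1 differed by 0.70 ± 0.12 (adjusted p 0.0213 by limma) and EFCAB12 by 0.62 ± 0.09 (adjusted p 0.0145). Neither acid's libraries overlapped with those of the other, which the rule for named genes required. SPDYE2, also called, belongs to a family of near-identical copies between which reads can be split. The last 3 called genes, LRRD1, RNU6-722P and SLC25A1P5, and on the butyrate side RP11-844P9.2, CTD-2196E14.5 and RP11-176H8.1, stayed under 1 CPM in the higher acid, with libraries at 0, and no fold is given for them.

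The difference did not detectably change with the moment of addition. Taken apart in a model with a mean for each group, PRTN against BUTN gave 5 called genes (0.0205% of those tested), TMEM104 and PPP1R3C higher with propionate and LCN2, CXCL5 and CTHRC1 higher with butyrate, and TNPR against TNBU gave 2 (0.00822%), LCN2 and CXCL5. PPP1R3C was chosen after its values were seen. The test of the change itself called 0 genes (0% of those tested), with a lowest adjusted p of 0.0966 and 727 genes at an unadjusted p under 0.05 by limma. The quasi-likelihood test of edgeR also called 0, and DESeq2 called 14. Among the 35 butyrate-side genes the median log2 difference was -0.80 before TNF-α and -0.63 after it, and 30 of the 35 had the larger difference before. On the propionate side the medians were 0.96 and 0.79, and 4 of 9 were larger before. These genes were called on the average of both timings, so the medians are descriptions.

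**Figure D3:**
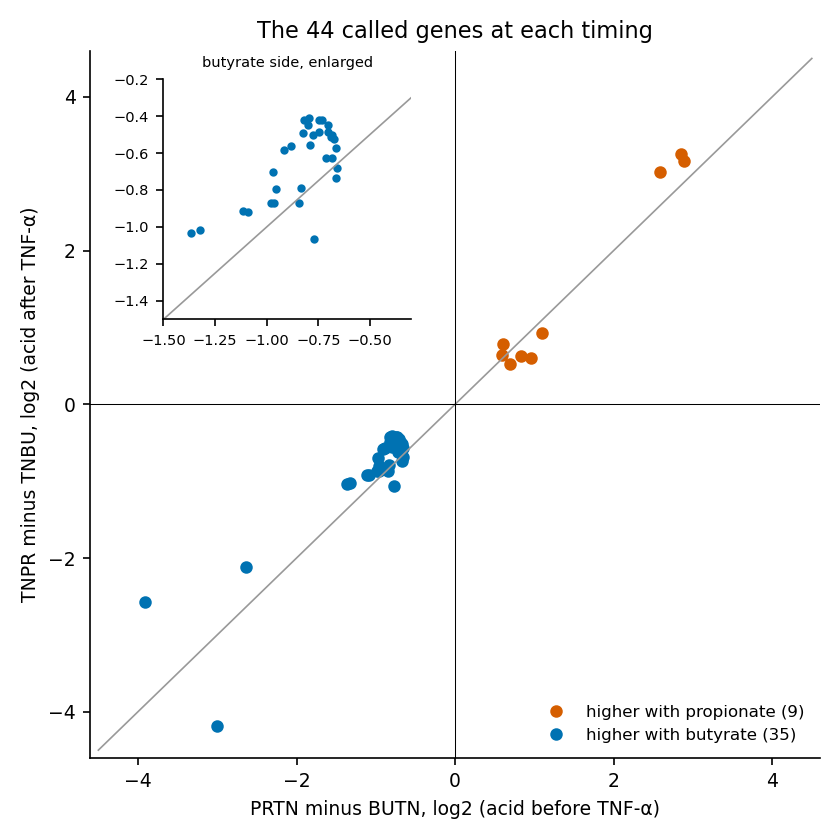
Log2 difference between propionate and butyrate for each of the 44 called genes when the acid was added before TNF-α (horizontal axis) and after it (vertical axis), with the crowded butyrate side enlarged in the inset. The grey line marks equal differences. All points lie in the lower left or the upper right of the plot, and most blue points of the inset lie above the line, where the difference was smaller after TNF-α.

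TNF-α-induced genes were examined because both acids are given here against TNF-α. In TN against Ctrl, 186 genes were called up (0.764% of those tested). The difference rests on 4 libraries outside the comparison of the acids. Its test took the spread and the gene filter from all 12 libraries, so the list is not fully independent. Of the 186, none was called higher with propionate and 3 were called higher with butyrate, CXCL5, CXCL3 and VNN1, a pantetheinase of the tubule that was named after its values were seen. The 3 are 1.61% of the list, against 0.144% of all genes tested. Without the fold threshold 15 were higher with butyrate (8.06%, against 0.867% of all genes) and 0 with propionate (against 1.07%). The log2 difference was below 0, that is, towards butyrate, for 147 of 186 (79.0%), with a median of -0.12, against 12400 of all 24342 genes (50.9%) and a median of -0.01. The median was -0.17 before TNF-α and -0.07 after it. For 141 of the 186 the 95% interval stayed within 1.5-fold. Of the 130 genes called down in TN against Ctrl (0.534% of those tested), 1 was called higher with propionate and 2 with butyrate, and without the fold threshold 5 were higher with propionate (3.85%) and 4 with butyrate (3.08%). Their median was -0.03, with 69 of 130 below 0 and 99 bounded within 1.5-fold.

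Of the 16 inflammatory genes that the study follows in these cells, CXCL3 was called. The study chose this list on the same libraries, so its direction is not independent evidence. It also overlaps with the TNF-α-induced genes above, CXCL3 among them. CXCL3, a neutrophil chemokine, was 17.1 and 18.2 CPM in PRTN, 28.3 and 32.2 CPM in BUTN, 11.2 and 7.01 CPM in TNPR and 14.4 and 11.2 CPM in TNBU, against a mean of 69.1 CPM with TNF-α alone. Both BUTN libraries were above both PRTN libraries (adjusted p 0.119 by limma for that timing alone), whereas the TNPR and TNBU libraries overlapped. A change of the difference with timing was not detected for CXCL3 (unadjusted p 0.316 by limma). Its log2 difference was -0.67 ± 0.13 (95% interval -0.95 to -0.40, adjusted p 0.0294 by limma), and the call was kept in 3 of 8 runs without 1 library. Reads of CXCL3 may be shared in part with the closely related CXCL1 and CXCL2. NFKB1, the precursor of the p50 subunit of NF-κB, passed the adjusted p at a smaller fold (-0.33 ± 0.07, adjusted p 0.0382). Its level was 46.5 and 51.2 CPM in PRTN, 64.0 and 65.2 CPM in BUTN, 31.6 and 29.8 CPM in TNPR and 39.6 and 33.3 CPM in TNBU.

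The other 14 genes of the list missed the adjusted p, and 15 of the 16 differences were below 0, with a median of -0.21. The median was -0.34 before TNF-α, with all 16 below 0, and -0.06 after it, with CSF2, IL6, IRAK2, LTB, TNFSF10 and VCAM1 above 0. CXCL8, the chemokine IL-8, was bounded closely, at 1118 and 1074 CPM in PRTN, 1243 and 1257 CPM in BUTN, 821 and 770 CPM in TNPR and 900.2 and 780 CPM in TNBU, with a difference of -0.13 (95% interval -0.24 to -0.02, adjusted p 0.20). CD40, the co-stimulatory receptor, differed by -0.08 (-0.19 to 0.03), the NF-κB adaptor TNIP1 by -0.17 (-0.29 to -0.06), IL7R, the interleukin 7 receptor, by -0.21 (-0.37 to -0.06) and the cytokine LIF by -0.19 (-0.39 to 0.00). Wider intervals belonged to IL6 (-0.28, from -0.57 to 0.00), the neutrophil chemokine CXCL2 (-0.30, from -0.64 to 0.05), the monocyte chemokine CCL2 (-0.25, from -0.63 to 0.13), the kinase IRAK2 (-0.19, from -0.45 to 0.06), the macrophage growth factor CSF1 (-0.40, from -0.69 to -0.10), the lymphotoxin LTB (-0.17, from -0.55 to 0.22) and the death ligand TNFSF10 (-0.21, from -0.72 to 0.30). For 9 of the 16 the interval stayed within 1.5-fold. CSF2, the growth factor GM-CSF, had 3.79 CPM in TNPR replicate 1 and 0.672 CPM in replicate 2, and its interval from -1.20 to 0.58 leaves either direction possible. VCAM1, an adhesion molecule, was at most 0.282 CPM in the SCFA libraries, with an interval from -0.83 to 1.27.

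**Figure D4:**
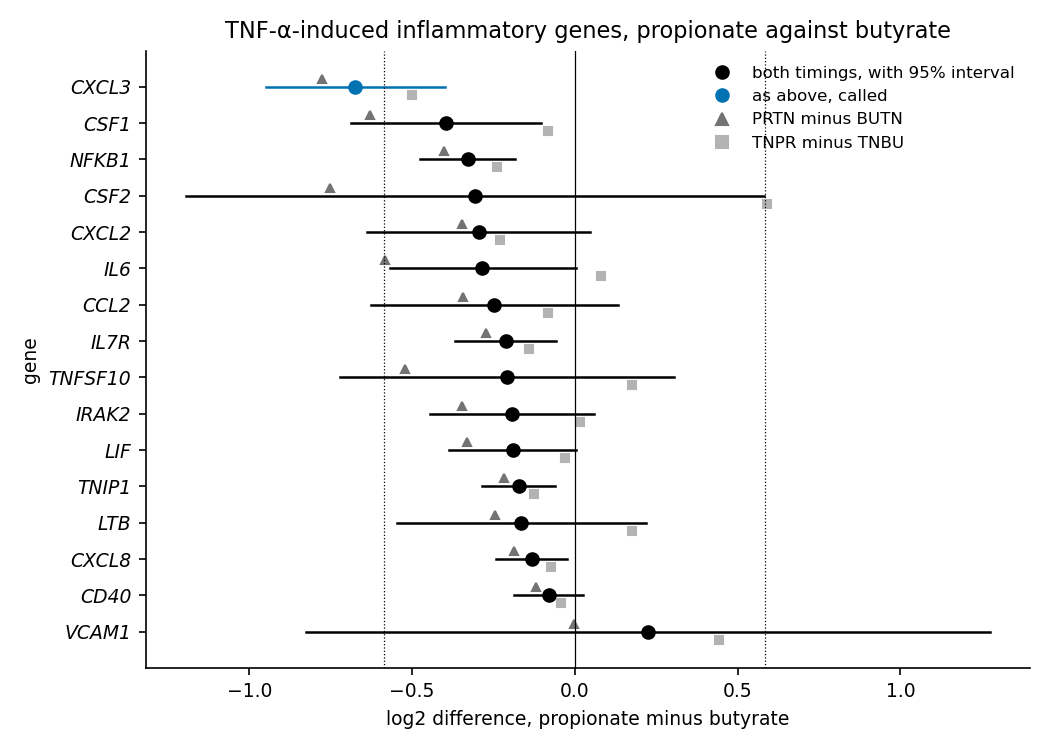
Log2 difference between propionate and butyrate (horizontal axis) for the 16 inflammatory genes (vertical axis), with circles for both timings together, lines for their 95% intervals, triangles for the acid given before TNF-α and squares for the acid given after it. Dotted lines mark 1.5-fold. Circles of 15 genes lie on the butyrate side, CXCL3 (blue) is the gene called, and the squares lie closer to 0 or to its right.

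Chemokines and cytokines as a wider list had 27 members tested. This list shares genes with the TNF-α-induced genes above, CXCL5 and CXCL3 among them, so the lists do not add to each other as evidence. CXCL5 and CXCL3 were called, both higher with butyrate, and IL18 and IL32 passed at a smaller fold in the same direction, while no member passed in favour of propionate. The 4 are 14.8% of the list and the 2 called 7.41%, against 0.867% and 0.144% of all genes. IL18, an inflammasome cytokine, was 41.6 and 42.6 CPM in PRTN, 54.3 and 56.9 CPM in BUTN, 38.3 and 41.9 CPM in TNPR and 52.3 and 57.3 CPM in TNBU (-0.42 ± 0.05, adjusted p 0.0103). Differences were below 0 for 26 of the 27, with a median of -0.30 (-0.39 before TNF-α and -0.08 after it). Not every chemokine differed by much. CCL20, which attracts lymphocytes and dendritic cells and was the next most abundant of the list after CXCL8, averaged 803 CPM with propionate and 855 CPM with butyrate, with an interval from -0.25 to 0.08.

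Adhesion and injury genes numbered 19 tested, of which LCN2 was called. ICAM1, a leukocyte adhesion molecule, PLAUR, the urokinase receptor, and the intermediate filament protein VIM were among those higher with butyrate at a smaller fold, and the list's median was -0.18 (-0.27 before TNF-α and -0.08 after it). Altogether 5 members passed the adjusted p towards butyrate (26.3%, against 0.867% of all genes) and 1 was called (5.26%, against 0.144%). ICAM1 was 597 and 611 CPM in PRTN, 838 and 782 CPM in BUTN, 308 and 295 CPM in TNPR and 383 and 367 CPM in TNBU (-0.37 ± 0.04, adjusted p 0.00937). HAVCR1, the injury marker KIM-1, differed by -0.02 (-0.29 to 0.25) and SPP1, osteopontin, by 0.01 (-0.11 to 0.12), both bounded within 1.5-fold, unlike LCN2. Of 21 NF-κB subunits and inhibitors none was called. NFKB1 and TNFAIP3, the deubiquitinase A20, were higher with butyrate (-0.29 ± 0.05 for TNFAIP3, adjusted p 0.0219), and CYLD, another deubiquitinase that restrains NF-κB, was higher with propionate (0.20 ± 0.04, adjusted p 0.0402). These are 9.52% and 4.76% of the list, against 0.867% and 1.07% of all genes. Of 38 interferon-stimulated genes none was called, and OAS1, HERC6 and PARP9 were higher with butyrate at a smaller fold, with a median over the list of -0.14. That is 7.89% of the list, against 0.867% of all genes, and 31 of the 38 differences were below 0 (81.6%, against 50.9%). Members that passed only the adjusted p in these and the following lists were named after their values were seen.

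Propionate catabolism was the list closest to the metabolic difference between the acids. None of its 23 members was called, and the median was 0.05. At a smaller fold 3 were higher with propionate (13.0%, against 1.07% of all genes) and 0 with butyrate (against 0.867%). The 3 were ALDH6A1, which makes propionyl-CoA from valine, PCCA, the biotin-carrying subunit of propionyl-CoA carboxylase, and MMUT, the methylmalonyl-CoA mutase. ALDH6A1 was 24.2 and 22.5 CPM in PRTN, 15.9 and 16.3 CPM in BUTN, 25.2 and 27.5 CPM in TNPR and 20.5 and 20.6 CPM in TNBU (0.44 ± 0.06, adjusted p 0.0127). PCCA was 13.0 and 12.3 CPM in PRTN, 10.6 and 9.86 CPM in BUTN, 15.3 and 14.9 CPM in TNPR and 11.4 and 9.75 CPM in TNBU (0.42 ± 0.08, adjusted p 0.0268). MMUT differed by 0.25 ± 0.05 (adjusted p 0.0438), and the 4 libraries of each acid did not overlap for any of the 3. PCCB, the partner subunit of PCCA, differed by 0.03 (-0.08 to 0.14). Of 32 genes of fatty acid oxidation and ketone bodies, ETFDH, which passes electrons to ubiquinone, was higher with propionate (0.40 ± 0.05, adjusted p 0.0123), and the list's median was 0.06. This gene is 3.12% of its list, against 1.07% of all genes.

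Of 20 genes of fatty acid synthesis 0 were called. DGAT1, which makes triglycerides, was higher with propionate (0.28 ± 0.05, adjusted p 0.0261) and FADS2, a fatty acid desaturase, with butyrate (-0.45 ± 0.10, adjusted p 0.0464), and the median was 0.06. Each is 5.0% of the list, against 1.07% and 0.867% of all genes. Among 25 nuclear genes of oxidative phosphorylation, SDHA and SDHB, subunits of succinate dehydrogenase, were higher with propionate (0.18 ± 0.04 and 0.25 ± 0.04, adjusted p 0.0433 and 0.0188), 0 were called and the median was 0.10. Together these subunits are 8.0% of the list, against 1.07% of all genes. The 13 protein genes of the mitochondrial genome had a median of 0.17, -0.07 before TNF-α and 0.41 after it, and none passed, while the mitochondrial share of counts was 9.46% and 7.55% in TNPR and 5.86% and 7.57% in TNBU. Its part in the median after TNF-α was not tested. Of 31 genes of cholesterol synthesis, IDI1, NSDHL and DHCR7, enzymes of the pathway, were higher with propionate by 0.22 to 0.26 with 0 called and a median of 0.09. They make up 9.68% of the list, against 1.07% of all genes. AKR1B1, the aldose reductase that makes sorbitol, and SLC6A6, the taurine transporter, were higher with propionate among 18 genes of the osmotic stress response, in which AQP1 was called in the other direction and the median was 0.16. At any fold 11.1% of the list passed towards propionate and 5.56% towards butyrate, against 1.07% and 0.867% of all genes. AKR1B1 was 1430 and 1423 CPM in PRTN, 1050 and 1033 CPM in BUTN, 1896 and 2142 CPM in TNPR and 1419 and 1698 CPM in TNBU (0.42 ± 0.06, adjusted p 0.0123). The osmotic load of 15 mM against 3 mM of acid cannot be told apart from the compound.

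**Figure D5:**
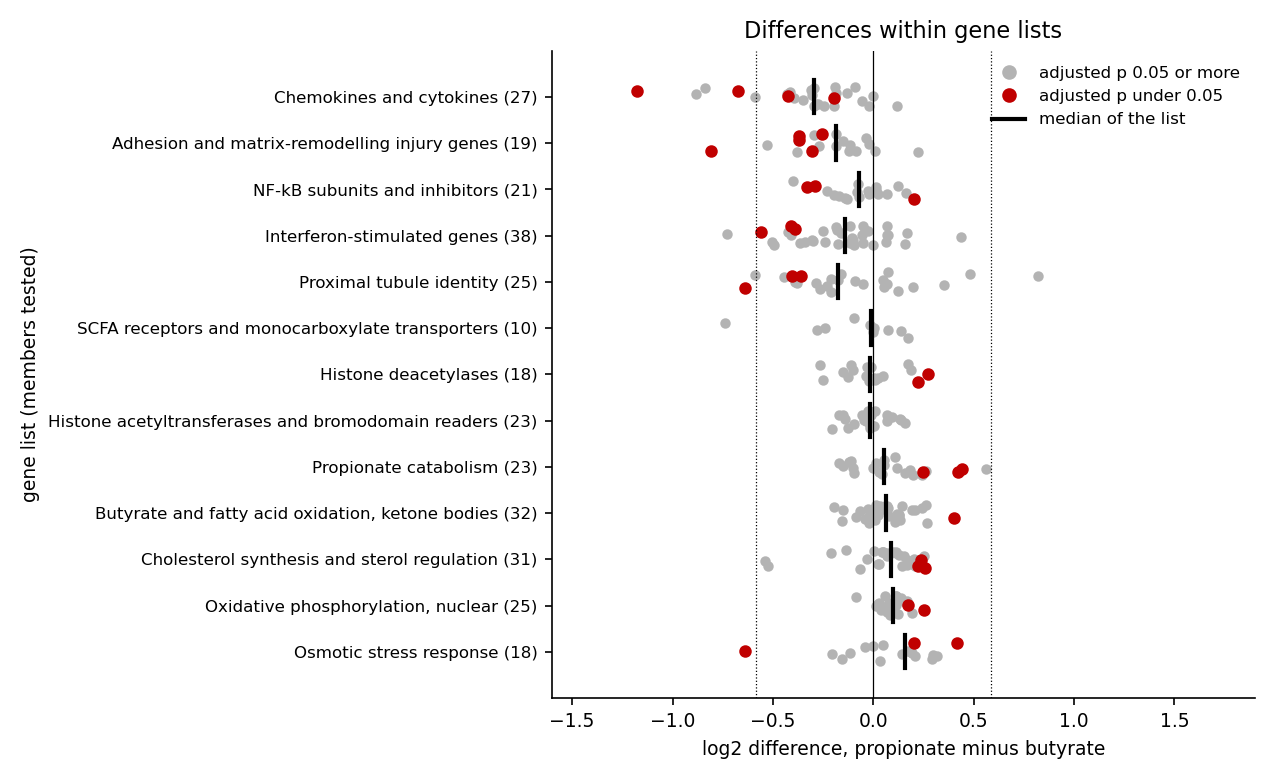
Log2 difference between propionate and butyrate (horizontal axis) for the members of 13 gene lists (vertical axis, with the number tested), with red points for an adjusted p under 0.05, grey points for the others and black bars for list medians. Inflammatory lists lean left, to a median of -0.30 for chemokines and cytokines, the metabolic lists lie slightly to the right, and acetylation genes cluster around 0.

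Genes of histone deacetylases, acetyltransferases and bromodomain readers stayed within 1.5-fold between the acids. Of 18 histone deacetylases none was called, and all 18 had intervals within 1.5-fold. Such a bound held for 56.4% of all genes tested and for 98.6% of those with at least 10 CPM. At any fold, 2 of the 18 passed the adjusted p towards propionate (11.1%, against 1.07% of all genes) and 0 towards butyrate (against 0.867%). HDAC3, a class I enzyme of co-repressor complexes, was 148 and 151 CPM in PRTN, 124 and 131 CPM in BUTN, 160 and 163 CPM in TNPR and 136 and 143 CPM in TNBU (0.22 ± 0.04, adjusted p 0.0238), and SIRT2, a deacetylase of tubulin, was also higher with propionate (0.27 ± 0.05, adjusted p 0.0298). HDAC1 and HDAC2 differed by 0.02 (-0.05 to 0.09) and -0.01 (-0.10 to 0.08). All 23 acetyltransferases and bromodomain readers were bounded within 1.5-fold as well, and none passed. Of 24 genes commonly raised by deacetylase inhibitors, none was called and ALPL, alkaline phosphatase, was higher with butyrate at a smaller fold (-0.36 ± 0.06, adjusted p 0.0251). ALPL is 4.17% of this list, against 0.867% of all genes. In this list CDKN1A, the cell cycle inhibitor p21, averaged 259 CPM with propionate and 252 CPM with butyrate against 38.6 CPM with TNF-α alone, with an interval from -0.07 to 0.15, and CLU, the chaperone clusterin, 312 and 309 CPM against 15.5 CPM (-0.15 to 0.18). These 2 genes were far from the TNF-α level with either acid and within 1.5-fold between the acids.

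The receptors and carriers of SCFAs gave no call among 10 tested. SLC16A1, the transporter MCT1, differed by -0.02 (-0.11 to 0.08), its chaperone BSG by 0.00 (-0.07 to 0.07) and SLC16A3, MCT4, by 0.07 (-0.03 to 0.17), whereas FFAR2 averaged 0.112 and 0.166 CPM, too low to compare. Among 32 genes of replication and mitosis 0 were called and all 32 were bounded within 1.5-fold, with E2F1, an activator of the S phase, higher with propionate (0.22 ± 0.05, adjusted p 0.0469). E2F1 is 3.12% of that list, against 1.07% of all genes. Cyclin-dependent kinase inhibitors and p53 targets (21 tested) and ribosome biogenesis genes (24 tested) had no member that passed and all members bounded.

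Of the lists not described so far, the proximal tubule list held a called member (25 tested, AQP1 called, ALPL and KRT19 at a smaller fold, all higher with butyrate). A few members passed the adjusted p at a smaller fold. BMP2, a bone morphogenetic protein, was 187 and 188 CPM in PRTN, 132 and 132 CPM in BUTN, 163 and 190 CPM in TNPR and 138 and 142 CPM in TNBU (0.42 ± 0.06, adjusted p 0.0114 by limma), whereas its relative BMP4 was higher with butyrate (-0.27 ± 0.05, adjusted p 0.0249). The glycolytic genes HK2 (hexokinase 2, not the cell line) and PFKM, a phosphofructokinase, were higher with propionate among 29 genes of hypoxia and glycolysis, by 0.38 ± 0.05 for the hexokinase (adjusted p 0.0114). Both together are 6.9% of the list, against 1.07% of all genes. GCLM, a subunit of the enzyme that begins glutathione synthesis, was higher with propionate (0.31 ± 0.05, adjusted p 0.0242) and FTH1, ferritin heavy chain, with butyrate (-0.20 ± 0.03, adjusted p 0.0145) among 28 genes of NRF2 and glutathione. Each is 3.57% of the list, against 1.07% and 0.867% of all genes. SERPINH1, the collagen chaperone HSP47, was 74.3 and 83.1 CPM in PRTN, 131 and 125 CPM in BUTN, 76.9 and 54 CPM in TNPR and 92.5 and 76.8 CPM in TNBU, with the later libraries overlapping (-0.55 ± 0.11, adjusted p 0.0378), against a mean of 695 CPM with TNF-α alone. Of 32 collagen and basement membrane genes LAMB3, a laminin chain, was higher with butyrate, and of 17 clock genes CRY1, a repressor of the clock, was higher with propionate (0.27 ± 0.04, adjusted p 0.0184). LAMB3 and CRY1 are 3.12% and 5.88% of their lists, against 0.867% and 1.07% of all genes. No gene of the integrated stress response (32 tested), the metallothioneins (13 tested) or klotho and vitamin D (11 tested) passed.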

How the data were processed

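RNA of 12 HK2 libraries was measured, and the 8 with an SCFA enter the comparison. Per the submitters' processing notes and the study's methods, reads of stranded mRNA libraries were checked with FastQC 0.11.5, aligned with STAR 2.6.1a to GRCh38 and counted with RSEM on the GENCODE annotation. The version of RSEM and its strand setting are not given in the sources used here. The authors deposited expected counts, unscaled and unfiltered, of which 80.7% are whole numbers. Replicates were not pooled.

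The filter asked for a geometric mean count of at least 1 in the 12 libraries (1 added to each count and taken off the mean), leaving 24342 of 58278. TMM factors (edgeR 4.0.16) and limma-voom 3.58.1 in R 4.3.3 gave differences with timing as a covariate (5 residual and 5.53 prior degrees of freedom), Benjamini-Hochberg adjustment and calls at a fold over 1.5 and an adjusted p under 0.05. A model with 4 group means gave each timing and the change between them. The 12 libraries gave TN against Ctrl and each SCFA group against TN. The median standard error of a log2 difference was 0.128. Counts were rounded for edgeR's own test and DESeq2 1.42.0. Intervals and the floor of 3 counts cover these libraries and counting error only. The scripts were tested on simulated data. Positions come from GENCODE, promoters from RefSeq.

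Named genes were up to 12 per direction with the largest difference among called genes with 1 direction at both timings, no overlap between acids, at least 1 CPM in the higher acid and an official symbol, with the called members of the gene lists and the 16 inflammatory genes. Members and lists were chosen with earlier results of these data known. Alternatives were other tests, scalings, filters, models, thresholds and sets of libraries. Replicate numbers were not used to pair the libraries in the main fit, and a fit that uses them is given under the dependence on processing.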

Additional observations from a re-analysis of the deposited data

Results flagged for a closer look

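In 74 checks of 1 library against the other 3 of its acid, over the 36 named genes and the mitochondrial share, 3 libraries stood apart. Chance alone flags about 1 in 20 sets of libraries that were treated alike. Each set here mixes both timings, so that rate need not hold. The highest CD22 level with butyrate was 2.69 CPM in TNBU replicate 2, above 3 libraries that lay within 2.593 to 2.601 CPM of each other. PTPN22 reached 3.36 CPM in TNPR replicate 2, against at most 2.19 CPM in the other propionate libraries. The mitochondrial share was 9.46% of counts in TNPR replicate 1, against 7.55% to 7.81% in the other propionate libraries. None of the 36 genes had its libraries fully separated in opposite directions at the 2 timings.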

How the results depend on the processing

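The count of called genes depends on the model and the libraries more than its direction does. Against 9 genes higher with propionate and 35 with butyrate, there were 17 on the propionate side without a filter, 25 with all 12 libraries in the fit, 23 on the butyrate side with DESeq2 and 18 with 4 group means. Sample quality weights gave 50 and 139, no timing covariate 0 and 2, the unadjusted p 200 and 417, a fold over 2 4 and 7, any fold 261 and 211, and a test against a fold of 1.5 gave 0 and 0, with 4160 genes at an unadjusted p under 0.05 in the test against no difference. Only the libraries treated before TNF-α gave 57 and 121, and only those treated after it 0 and 0. Leaving out 1 library gave 0 to 20 on the propionate side and 3 to 55 on the butyrate side. The 5 genes called in PRTN against BUTN became 41 with all 12 libraries, 178 with only the 4 compared and 45 with DESeq2, and 1 to 31 without 1 library. The 2 called in TNPR against TNBU became 0 with only the 4 compared and 10 with DESeq2, and 2 to 3 without 1 library. The change with timing (0) became 14 with DESeq2 and 0 to 9 without 1 library. The cause of these changes was not tested beyond the fewer libraries in each fit.

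The 21 called genes among the 36 named kept their direction in all 479 refits and lost the call in 134, of which 69 left out a PRTN or BUTN library. Of the genes not called, CSF2 turned to 0.03 with edgeR, 0.11 with DESeq2, -0.74 to 0.01 without 1 library (above 0 without TNPR replicate 2) and 0.59 with only the libraries treated after TNF-α. With only those, IL6 turned to 0.08, TNFSF10 to 0.17, IRAK2 to 0.01 and LTB to 0.18. VCAM1 ranged from -0.09 to 0.59 without 1 library, below 0 without BUTN replicate 2. Scaling by library size alone moved the median of all genes from -0.01 to -0.02.

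The replicate block, with the replicate number added to the model, gave 13 and 40 genes. Deviations of same-numbered libraries correlated from -0.05 to 0.11, with 1 of 6 pairs of groups over 0.1. Genes under 1 CPM enter these correlations with full weight, so low values cannot exclude a pairing. No crossed pairing was tried. Depth limits the low genes: of the genes under 1 CPM on average, 2.54% could be bounded within 1.5-fold.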
